A study of Homo sapiens with 6 samples.

Results

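The axon guidance genes examined here are the 69 protein-coding genes of the RefSeq GRCh38 table that encode semaphorins, plexins, neuropilins, ephrins, Eph receptors, SLITs, ROBOs, netrins, DCC or UNC5 proteins, out of 20037 protein-coding genes on chromosomes 1 to 22, X and Y. The families were picked with earlier results of these data known, and their genes were then taken by symbol. A peak was assigned to a gene when it shared at least 1 bp with the gene body or the 5 kb on either side. Of the 69 genes, 35 encode ligands and 34 encode receptors. The peaks come from CUT&RUN, in which an antibody tethers a nuclease to a chromatin protein and the DNA cut free around it is sequenced. The study made 4 libraries with an antibody to MYT1L, a zinc-finger transcription factor of neurons, and 2 with IgG, an antibody that recognises no chromatin protein and gives the background. All 6 were made at day 30 from WT (unmodified) H1, a line of human embryonic stem cells, with passages given as p10-p60 for every sample. The series' title and design text call the cells cortical interneurons made from the stem cells, while the sample labels give the cell type as embryonic stem cells. Expression was not measured, so the cell type could not be checked against markers. The labels do not say whether the libraries came from separate cultures, so differences between them may be technical, and the peak names inside each MYT1L list carry a sample number 1 above that of the title, which was followed here.

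Axon guidance cues steer growing axons and migrating neurons by attraction or repulsion. Secreted SLITs repel through ROBO receptors, netrins attract through DCC and repel through UNC5 receptors, and semaphorins signal through plexins, with neuropilins as co-receptors for most secreted class 3 members. Ephrins are membrane-bound ligands of the Eph receptor tyrosine kinases, and signals pass in either direction between the touching cells. Cortical interneurons are born in the ventral forebrain and migrate over long distances, and several of these families are known to guide them.

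At least 1 MYT1L peak was found at 65 of the 69 genes, against 84.1% of all protein-coding genes with one. EFNA2, PLXNB3, ROBO4 and SEMA3G had none. Overlapping peaks of the 4 MYT1L libraries were joined into regions, and a region is called reproducible when at least 3 of the 4 libraries have a peak in it and no IgG peak overlaps it. Such a region was present at 33 of the 69 guidance genes (47.8%), against 48.0% of all protein-coding genes, so the guidance genes as a list carried reproducible regions about as often as any gene. In such bulk material fewer cells with the protein bound and less binding per cell cannot be told apart. Keeping regions that overlap an IgG peak gave 36 of the 69 genes, against 50.3% of all genes, and added EPHB6, NTN5 and SEMA4F. Regions with a peak in all 4 libraries were fewer, at 10 of the 69 genes (14.5%) against 25.3% of all genes. The 33 genes held 38 reproducible regions. ROBO1 had 3, EPHA10, NRP2 and NTN1 had 2 each, and the remaining 29 had 1. At least 2 reproducible regions were thus present at 5.80% of the guidance genes, against 7.79% of all genes. The number of genes depended on how strict the definition was. It was 15 (21.7%, against 30.6% of all genes) when only peaks with a deposited −log10 q of at least 5 were used, and 14 of these were among the 33. It was 17 (24.6% against 33.7%), all among the 33, with equal numbers of top peaks per MYT1L library. It was 51 (73.9% against 65.3%) when 2 libraries sufficed. The share at guidance genes was thus below that of all genes under both stricter peak sets and above it when 2 libraries sufficed. None of the shares above was weighted by gene length, and guidance genes are longer than genes in general.

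**Figure D1:**
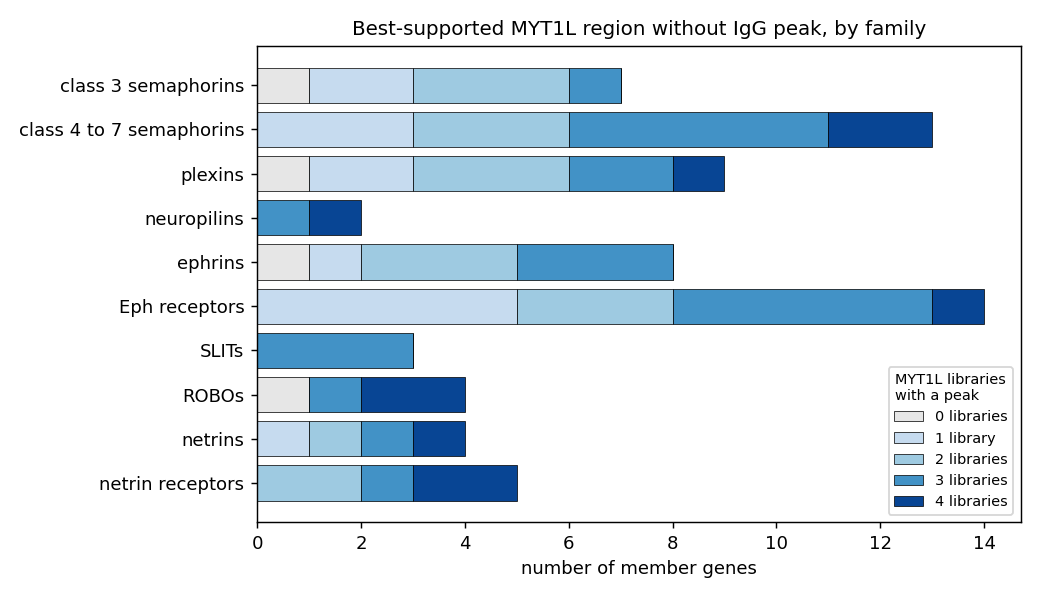
Number of guidance genes in each family (x axis, genes) by the number of MYT1L libraries that share their best-supported region without IgG peak (shades, 0 to 4 libraries). All 3 SLITs and both neuropilins reach at least 3 libraries, whereas 1 of 7 class 3 semaphorins does. Of all genes, weighted to the length classes of each of these families, 69.6%, 66.5% and 56.5% have such a region.

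Guidance genes are long, and long genes carry a region more often. Their median length was 55.2 kb against 24.1 kb for all protein-coding genes, and 21.7% of them exceeded 300 kb against 3.86% of all genes. Among genes under 20 kb, 5 of 20 guidance genes had a reproducible region (25.0%, against 34.7% of all genes of that length). Between 20 and 100 kb it was 6 of 17 (35.3% against 55.1%), and between 100 and 300 kb 9 of 17 (52.9% against 66.5%). Above 300 kb the order was the opposite, with 13 of 15 (86.7% against 71.2%), the exceptions being DCC and SEMA3A. Counting only regions within 1 kb of a start, the guidance genes with one were 3 of 20 under 20 kb (against 27.1% of all genes of that length), 6 of 17 between 20 and 100 kb (against 48.2%), 9 of 17 between 100 and 300 kb (52.9% against 56.1%) and 10 of 15 above 300 kb (66.7% against 56.8%). A region over 1 kb from the gene's own starts was present at 2 of 17 guidance genes of 100 to 300 kb, against 23.2% of all genes of that length. Weighted by the lengths of the guidance genes, all protein-coding genes would give 55.5% with a reproducible region, above the 47.8% of the guidance genes. The weights, here and wherever all genes are weighted to lengths, are the shares of a list's genes in the length classes above. The 33 genes with a reproducible region had a median length of 188 kb, and the 36 without had 31.1 kb. Per Mb of gene body and flanks, the guidance genes held 2.50 reproducible regions, against 6.42 over all protein-coding genes. This ratio was not matched for gene length, and a region at a start counts for less per Mb in a long gene. These counts of genes with a reproducible region are descriptions, with no test.

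**Figure D2:**
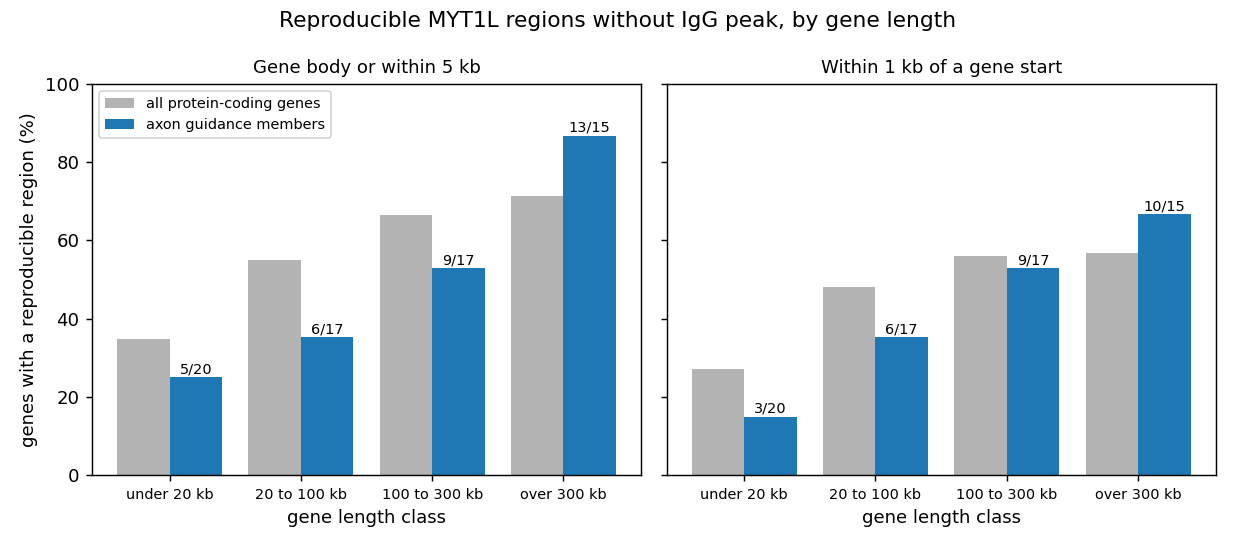
Percent of genes with a reproducible MYT1L region (y axis) in 4 classes of gene length (x axis), for all protein-coding genes (grey) and guidance genes (blue, with counts), over the gene body and 5 kb flanks (left) and within 1 kb of a gene start (right). The guidance genes lie below all genes in the 3 shorter classes and above them over 300 kb in both panels.

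The 38 reproducible regions lay mostly at gene starts. Starts with strand were available from the RefSeq promoter table for 59 of the 69 genes, and for EFNB3, EPHA10, NRP1, NTN1, NTN3, SEMA3A, SEMA6A, SEMA6B, UNC5B and UNC5D both gene ends were used in their place. Counted this way, 28 genes (40.6%) had a reproducible region within 1 kb of a start, against 40.0% of all genes. Among genes with an annotated start only, the order was the opposite, with 22 of 59 guidance genes (37.3%) against 42.2%, and weighted by the lengths of the guidance genes all genes gave 45.9%. Of the 38 regions, 22 were at an annotated start, 6 at an end of a gene without strand, 7 deeper inside the gene and 3 in a flank. Of all 211 regions at guidance genes, reproducible or not, 82 (38.9%) lay within 1 kb of the gene's own start. In the windows of all protein-coding genes, 47.0% of regions lay within 1 kb of the start of any such gene. A reproducible region over 1 kb from the gene's own starts was present at 9 of the 69 genes, against 14.1% of all genes. The regions were 427 to 1972 bp wide, with a median of 848 bp (794 bp over all 11091 reproducible regions of the genome). Not every region belongs to the guidance gene alone. Those at SEMA4C, EPHA6, EFNA1 and NTN3 lay within 1 kb of the start of a neighbour (ANKRD39, ARL6, SLC50A1 and TBC1D24), and for SEMA4C, EPHA6 and EFNA1 they were over 1 kb from the gene's own start. Without these, 29 of the 69 genes had a reproducible region. The same exclusion was not made over all protein-coding genes, so this count has no share of all genes to be set against.

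The sequences before the starts of 6 genes are given as examples, picked after their values were seen, and do not stand for the regions as a set. EPHA5 and SEMA6C had a peak over the start in all 4 MYT1L libraries, SEMA3C had the region with the highest mean fold, NRP2 and SLIT2 had the core motif of the MYT1 family, and DCC is shown as a start without a reproducible region. Peaks of 2 libraries overlapped the SLIT2 and the DCC window, and peaks of 3 the SEMA3C and NRP2 windows. Each is the 250 bases before the start on the gene's own strand, from RefSeq GRCh38.p14, 5′ to 3′, and capitals mark the core AAGTT on either strand, which reads AACTT on the other. The EPHA5 window is chr4:65670490-65670739 on the minus strand, SEMA6C chr1:151146632-151146881 on the minus strand, SEMA3C chr7:80919052-80919301 on the minus strand, NRP2 chr2:205682251-205682500 on the plus strand, SLIT2 chr4:20251655-20251904 on the plus strand and DCC chr18:52339947-52340196 on the plus strand.
EPHA5: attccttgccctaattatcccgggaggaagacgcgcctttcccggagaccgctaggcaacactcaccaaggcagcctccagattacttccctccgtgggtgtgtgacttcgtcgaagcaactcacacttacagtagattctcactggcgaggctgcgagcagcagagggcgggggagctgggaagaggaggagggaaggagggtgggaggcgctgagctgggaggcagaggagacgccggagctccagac
SEMA6C: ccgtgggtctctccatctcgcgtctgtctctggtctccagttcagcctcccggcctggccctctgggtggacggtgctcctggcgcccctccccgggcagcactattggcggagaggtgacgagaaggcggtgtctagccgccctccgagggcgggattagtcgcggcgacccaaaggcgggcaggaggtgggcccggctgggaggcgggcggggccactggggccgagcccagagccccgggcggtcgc
SEMA3C: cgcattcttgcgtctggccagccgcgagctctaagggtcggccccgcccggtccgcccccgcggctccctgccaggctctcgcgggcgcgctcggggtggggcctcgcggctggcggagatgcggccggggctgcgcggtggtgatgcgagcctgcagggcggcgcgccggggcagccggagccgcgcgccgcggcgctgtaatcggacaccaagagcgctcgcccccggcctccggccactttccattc
NRP2: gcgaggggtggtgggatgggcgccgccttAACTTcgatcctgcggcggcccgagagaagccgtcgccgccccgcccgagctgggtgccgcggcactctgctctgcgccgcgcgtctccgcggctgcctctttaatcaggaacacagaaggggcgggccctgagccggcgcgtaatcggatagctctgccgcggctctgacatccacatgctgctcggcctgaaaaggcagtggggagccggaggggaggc
SLIT2: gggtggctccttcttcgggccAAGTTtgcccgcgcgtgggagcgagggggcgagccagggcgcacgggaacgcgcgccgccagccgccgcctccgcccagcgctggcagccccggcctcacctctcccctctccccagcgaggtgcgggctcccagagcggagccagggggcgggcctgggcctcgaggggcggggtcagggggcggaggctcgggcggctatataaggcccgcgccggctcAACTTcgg
DCC: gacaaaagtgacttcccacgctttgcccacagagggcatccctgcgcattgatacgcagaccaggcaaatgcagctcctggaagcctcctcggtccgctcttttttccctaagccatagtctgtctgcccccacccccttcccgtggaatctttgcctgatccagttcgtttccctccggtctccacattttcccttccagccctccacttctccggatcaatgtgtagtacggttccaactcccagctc
The SEMA3C stretch had 39 CpG dinucleotides and a GC content of 77.6%, SLIT2 had 30 (77.2%), NRP2 29 (70.0%), SEMA6C 24 (73.2%), EPHA5 14 (61.2%) and DCC 10 (56.0%). The core occurred 2 times before the SLIT2 start and 1 time before the NRP2 start, and these letters were not in the other 4 windows.

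Over all 91 start windows of the 59 matched genes, each 300 bases from 250 before to 50 after a start, 26 had a reproducible region within 1 kb and 65 had none. The median ratio of observed to expected CpG was 0.728 at windows with a region and 0.688 at those without. Over all protein-coding genes the medians were 0.865 at 8553 windows with a region and 0.498 at 13622 without. The median GC content was 69.5% and 64.0% in guidance genes, against 67.3% and 58.0% over all genes. AAGTT on either strand was in 10 of the 26 guidance windows with a region (38.5%) and 21 of the 65 without (32.3%). Over all genes it was in 22.2% of windows with a region and 35.0% of those without. The longer form AAAGTTT, which contains AAGTT and was also searched on both strands, was in 1 of 26 and 4 of 65 guidance windows, against 3.66% of all 22175 windows. These are descriptions of letters in a window and not of binding sites. Windows of one gene can overlap, so they are not independent.

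Among SLITs, the secreted repellents, all 3 genes had 1 reproducible region, and each lay at the gene's start, with a peak in 3 libraries. The SLIT1 region (chr10:97185503-97186060) had a fold of 4.44 in MYT1L replicate 1, 4.37 in replicate 3 and 5.88 in replicate 4, with no peak in replicate 2. The SLIT2 region (chr4:20251584-20252894), which spans the sequence shown but has its summit 848 bp past the start, had a fold of 4.43, 6.84 and 5.63 in replicates 1, 2 and 4. At the SLIT3 region (chr5:169300436-169301134) the fold was 4.78, 4.46 and 6.27 in replicates 2, 3 and 4. Fold here is the authors' enrichment of a peak over its local background, and each SLIT region missed a different library.

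Of the 4 ROBO genes, which encode the SLIT receptors, 3 had a reproducible region, against 52.9% of all genes weighted to their lengths. These were ROBO1, ROBO2 and ROBO3, while ROBO4, the vascular member, had no peak in any library. ROBO1, a receptor of migrating interneurons, spans 1171 kb, and 1 of its regions had peaks in all 4 libraries (chr3:79018747-79019706), at an annotated start inside the gene. Its fold was 4.77, 6.96, 4.65 and 7.63 in replicates 1 to 4 (mean 6.01 ± 1.52, SD, n = 4), from a pileup of 10, 10, 9 and 24 fragments at the summit. The pileup was recovered from the deposited fold and p-value. Another lay 1077 bp inside the outermost start (chr3:79766390-79766921, fold 6.22 ± 0.834, SD, n = 3) and the third 280735 bp upstream of the inner start (chr3:79300194-79300782, fold 5.54 ± 1.12, SD, n = 3). ROBO2, the longest guidance gene at 1743 kb, had 7 regions, but its start at position 77040099 had a peak in only 2 libraries (fold 7.06 in replicate 1 and 6.92 in replicate 4). Its reproducible region lay 199740 bp downstream of that start (chr3:77239839-77240548) and was among the weakest, with a fold of 3.63, 4.39 and 5.81 in replicates 1, 3 and 4 and 7, 8 and 10 fragments at the summit. ROBO3, a divergent ROBO of midline-crossing axons, had 1 region in all 4 libraries (chr11:124876096-124876715), at an annotated start inside the gene. Replicate 4 was the highest there, with a fold of 4.22, 6.34, 4.89 and 9.0 in replicates 1 to 4 (mean 6.12 ± 2.12, SD, n = 4).

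Netrins, the axon attractants, had a reproducible region in 2 of 4 genes, against 50.6% of all genes weighted to their lengths. NTN1 had a region in all 4 libraries at its lower end (chr17:9002876-9003629). Its fold was 4.6, 5.06, 4.32 and 8.32 in replicates 1 to 4, with replicate 4 above the other 3. A second region 18222 bp from that end, inside the gene (chr17:9021309-9023177), had a fold of 6.20 ± 1.93 (SD, n = 3). The NTN3 region lay at the end shared with TBC1D24 and had the lowest mean fold of the 38, 4.08 ± 0.374 (SD, n = 3). NTN5 had the strongest netrin region, with a fold of 8.20, 9.08, 4.32 and 9.19 in replicates 1 to 4, but IgG replicate 2 had a peak there (fold 5.06), so it was not counted. NTN4 had peaks in replicates 3 and 4 only.

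The netrin receptors differed, and 3 of 5 genes had a reproducible region (60.0%, against 64.7% of all genes weighted to their lengths). UNC5B (chr10:71212417-71213162) and UNC5D (chr8:35235176-35236674), receptors for repulsion by netrin, had a region in all 4 libraries at the lower end of the gene. The fold at UNC5D was 6.91, 5.91, 6.19 and 7.95 in replicates 1 to 4 (mean 6.74 ± 0.912, SD, n = 4), so every library lay between 5.91 and 7.95. At UNC5B it was 5.51, 4.38, 7.24 and 7.06 (mean 6.05 ± 1.36, SD, n = 4). The UNC5C start (chr4:95548736-95549939) had a peak in 3 libraries, with a fold of 5.01, 4.67 and 8.22 in replicates 1, 3 and 4. DCC, the receptor for attraction by netrin, had no reproducible region in 1196 kb. It had 7 regions, of which 5 were seen in 1 library. The DCC start had a fold of 5.32 in replicate 1 and 6.14 in replicate 4, and no peak in replicates 2 and 3. UNC5A had 4 regions, 1 of them in 2 libraries and 3 in 1.

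Of the 7 class 3 semaphorins, the secreted semaphorins, SEMA3C alone had a reproducible region. It lay at the inner of 2 annotated starts, over the sequence shown (chr7:80918956-80919382), with a fold of 5.95, 9.26 and 11.4 in replicates 1, 3 and 4 (mean 8.86 ± 2.72, SD, n = 3). That was the highest mean fold of the 38 regions and exceeded 95.04% of all reproducible regions in the genome, although replicate 2 had no peak there. SEMA3A, a repellent of cortical axons and interneurons, had 6 regions over 537 kb. Only 1 of them was shared, by replicates 1 and 4 (fold 5.95 and 5.81), and none lay within 1 kb of either gene end. SEMA3B and SEMA3D had a region in 2 libraries, SEMA3E and SEMA3F had regions in 1, and SEMA3G had none.

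Of the 13 semaphorins of classes 4 to 7, which are membrane-attached, 7 had a reproducible region (53.8%, against 53.9% of all genes weighted to their lengths). The SEMA6C start (chr1:151145642-151147201) had peaks in all 4 libraries, with a fold of 4.04, 5.86, 4.41 and 6.0 in replicates 1 to 4 (mean 5.08 ± 1.0, SD, n = 4). The region in the flank of SEMA4C, at the start of ANKRD39, was also in all 4 (chr2:96857329-96858414, fold 4.77, 5.20, 5.49 and 6.58). SEMA6D, SEMA5A, SEMA7A, SEMA4B and SEMA5B had a region in 3 libraries at a start, with a mean fold of 7.15, 6.67, 6.34, 6.14 and 4.58. The SEMA4F start had peaks in all 4 libraries (fold 4.55 to 9.56) but also in IgG replicate 2 (fold 5.15), and 2 further regions at SEMA4B overlapped an IgG peak. SEMA4D, SEMA4G and SEMA6A had a region in 2 libraries, and SEMA4A and SEMA6B in 1.

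Both neuropilins had a reproducible region near an end of the gene. At NRP1 (chr10:33334865-33335825) all 4 libraries had a peak, with a fold of 5.29, 6.38, 6.12 and 7.01 in replicates 1 to 4 (mean 6.20 ± 0.713, SD, n = 4). The NRP2 start (chr2:205682043-205682783), over the sequence shown, had a fold of 5.65, 5.71 and 6.57 in replicates 2, 3 and 4, and a second region 2956 bp inside had 3.86, 5.39 and 5.08 in replicates 1, 3 and 4. The start region of NRP2 thus missed replicate 1 and the inner one replicate 2. NRP1 and NRP2 are the receptors by which interneurons sense class 3 semaphorins.

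Plexins, the semaphorin receptors, had a reproducible region in 3 of 9 genes (33.3%, against 54.9% of all genes weighted to their lengths). PLXNA4 (chr7:132561488-132562284) had peaks in all 4 libraries 14186 bp from its annotated start, inside the gene, and the libraries were close to each other, with a fold of 5.15, 4.93, 4.21 and 4.59 in replicates 1 to 4 (mean 4.72 ± 0.413, SD, n = 4). The PLXNA2 and PLXNC1 regions lay at the start, with a mean fold of 5.45 ± 0.681 and 6.55 ± 1.66 (SD, n = 3 each). PLXNA1 had 1 region, shared by replicates 1 and 4 at the start, with a fold of 3.76 and 3.55. The B class had no reproducible region: PLXNB2 had a region in 2 libraries, PLXNB1 in 1 and PLXNB3 in none. PLXNA3 had a region in 2 libraries and PLXND1 had 4, each in 1.

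Ephrins had a reproducible region in 3 of 8 genes (37.5%, against 41.3% of all genes weighted to their lengths). The EFNB2 start (chr13:106534957-106536523) had a fold of 7.31, 5.29 and 7.38 in replicates 1, 3 and 4, with 51 fragments at the summit in replicate 4, the deepest of any of the 38 regions. The EFNA5 region at the start had 4.22, 6.37 and 4.47 in replicates 1, 2 and 4, and the EFNA1 region lay at SLC50A1. EFNB3, a ligand of forebrain Eph receptors, had 1 region, seen in replicate 4 alone (fold 5.85, 34 fragments), at its lower end. EFNA3, EFNA4 and EFNB1 had a region in 2 libraries, and EFNA2 had no peak.

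Eph receptors had a reproducible region in 6 of 14 genes (42.9%, against 59.2% of all genes weighted to their lengths). EPHA5 (chr4:65670304-65670889) had the highest mean fold among the 10 regions in all 4 libraries and close values, with 7.01, 7.23, 6.28 and 7.20 in replicates 1 to 4 (mean 6.93 ± 0.444, SD, n = 4). It covers the sequence shown. EPHA3 was uneven, with 5.49, 7.04 and 11.7 in replicates 1, 2 and 4 and no peak in replicate 3. EPHB1, EPHB3 and EPHA10 had regions at a start or end with a mean fold of 4.61, 4.58 and 5.26, and EPHA10 had another inside. EPHA6 had its counted region at ARL6, while the one at its own start overlapped a peak of IgG replicate 2. EPHA4, a receptor of cortical and striatal wiring, had 2 regions near its starts, 1 in replicates 1 and 4 (fold 5.23 and 5.20) and 1 in replicate 4 alone. EPHB6 had a region in 3 libraries that overlapped an IgG peak. The other 6, EPHA1, EPHA2, EPHA7, EPHA8, EPHB2 and EPHB4, had regions in at most 2 libraries. By role, 16 of 35 ligands (45.7%) and 17 of 34 receptors had a reproducible region, both near the 48.0% of all genes. The receptors were longer, with a median of 103 kb against 44.7 kb. Weighted to the lengths of each list, all genes gave 52.5% for ligands and 58.6% for receptors.

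**Figure D3:**
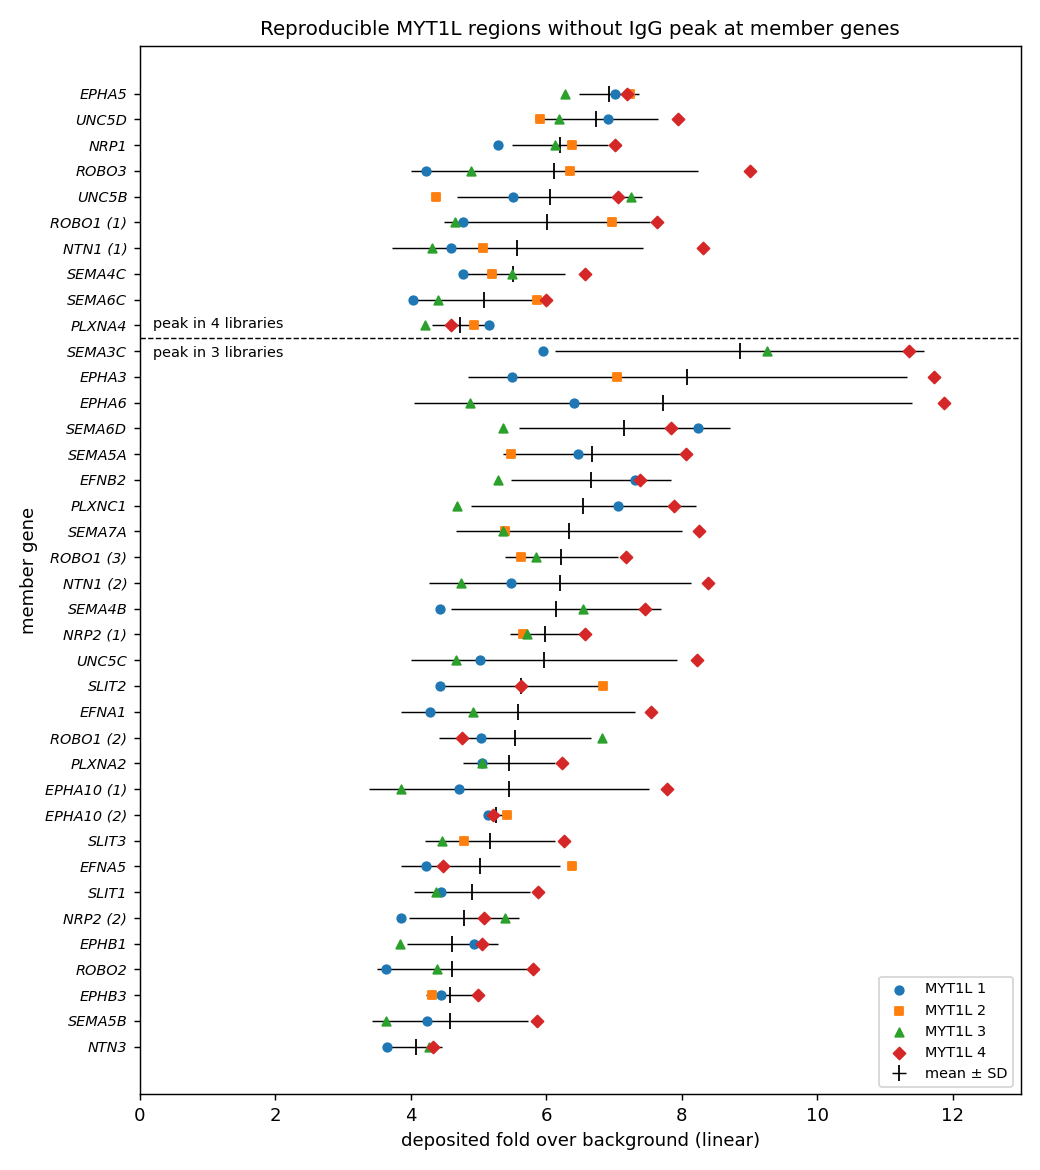
Deposited fold (x axis, linear) of the 38 reproducible regions at guidance genes in each MYT1L library (symbols), with the mean and SD over the libraries that have a peak (black); rows are regions, numbered by position where a gene has several, and the dashed line separates regions in 4 libraries (above) from those in 3. MYT1L replicate 4 is highest in 29 of the 38 regions (76.3%, against 69.3% of all reproducible regions of the genome), and the values run from 3.63 to 11.9.

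Most regions, at guidance genes as elsewhere, were not shared between libraries. Of 211 regions at guidance genes, 129 (61.1%) had a peak in 1 MYT1L library, against 58.1% of regions in the whole genome and 52.3% of those in the windows of all protein-coding genes. A further 38 had a peak in 2 libraries, 31 in 3 and 13 in all 4. Including regions with an IgG peak, 20.9% were in at least 3 libraries, against 30.5% of the 31108 regions in the windows of all protein-coding genes. Of the 129, 80 came from MYT1L replicate 4 (62.0%, against 39.5% of single-library regions in the whole genome) and 29 from replicate 1 (22.5% against 35.4%). Regions in 3 libraries most often missed replicate 2, in 18 of 28 cases (64.3%, against 64.8% over all such regions), and none of the 28 missed replicate 4. Replicate 2 also had the lowest background coverage of the 4 (0.421 fragments over a position), and its part in this was not tested.

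In every MYT1L library the peaks at guidance genes had a lower median fold than the whole list, although 4 libraries are too few for a test to pass 0.05. The whole list includes peaks outside genes, and the peaks compared were not matched for gene length or place in the gene. The median fold was 4.47 at guidance genes against 4.92 over all peaks in MYT1L replicate 1, 5.27 against 5.56 in replicate 2, 4.83 against 5.17 in replicate 3 and 5.02 against 5.55 in replicate 4. The mean difference was -0.400 ± 0.108 (SD, n = 4), lower in 4 of 4 libraries (p = 0.125 in an exact two-sided sign-flip permutation, the lowest value that 4 libraries can give). The median of the mean fold of the 38 reproducible regions was 5.80, against 6.43 over the 8937 reproducible regions in the windows of all protein-coding genes. The 38 regions had 7 to 51 fragments at the summit in a library, a small number that limits the precision of each fold.

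MYT1L and IgG libraries were compared next, to see how much of this the background antibody also gives. Peaks were present at 53, 30, 42 and 63 of the 69 guidance genes in MYT1L replicates 1 to 4, against 68.0%, 43.0%, 57.3% and 77.6% of all protein-coding genes. As percentages of the guidance genes these were 76.8%, 43.5%, 60.9% and 91.3%. The shares of all genes were not weighted to the greater length of the guidance genes, and a longer gene has more room for a peak. IgG replicate 1 had a peak at none of the guidance genes and IgG replicate 2 at 5 (7.25%), against 1.61% and 2.90% of all genes. MYT1L libraries averaged 47.0 ± 14.2 genes (SD, n = 4). IgG libraries averaged 2.50 ± 3.54 genes (SD, n = 2). The difference of 44.5 genes had p = 0.133 in an exact two-sided permutation of the labels over 15 splits, and each MYT1L library was above each IgG library. The permutation doubles the p of a single direction, and its result here is the lowest that 4 against 2 libraries can then give. The 5 genes were EPHA6, EPHB6, NTN5, SEMA4B and SEMA4F, and all 6 IgG peaks at them overlapped a MYT1L region.

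The libraries also differed in depth, and the number of genes with a peak did not follow it in order: MYT1L replicate 4 had the most genes at the third highest coverage, and IgG replicate 2 had more than the deeper IgG replicate 1. The number of genes did follow the length of the peak list in order. The lists held 27926, 12310, 18966 and 30086 peaks in MYT1L replicates 1 to 4, and 976 and 998 in IgG replicates 1 and 2. The estimated background, in fragments over a position, was 1.18, 0.421, 1.05 and 0.895 in MYT1L replicates 1 to 4 and 0.329 and 0.190 in IgG replicates 1 and 2. Reduced to the coverage of IgG replicate 1, the MYT1L libraries were expected to have peaks at 12.6, 24.0, 10.3 and 45.2 guidance genes, against 0 observed. At the lower coverage of IgG replicate 2 they would have kept 6.03, 11.7, 4.78 and 28.3 genes, where the control itself had 5, so replicate 3 was no longer above this control. With the 976 peaks of highest −log10 q from every library the order turned, with a mean of 0.750 ± 0.957 genes (SD, n = 4) for MYT1L against the same 2.50 genes for IgG (exact two-sided permutation p = 0.667).

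As a share of the peak list, guidance genes took 0.344% (95% Wilson interval 0.282% to 0.420%), 0.333% (0.246% to 0.451%), 0.348% (0.274% to 0.442%) and 0.538% (0.462% to 0.628%) in MYT1L replicates 1 to 4. In IgG libraries they took 0% (0 of 976 peaks, upper bound 0.392%) and 0.601% (0.276% to 1.31%), the latter from 6 peaks. The intervals cover counting error only. The groups overlapped, and their means of 0.391% ± 0.0986 (SD, n = 4) and 0.301% ± 0.425 (SD, n = 2) were 0.0902 percentage points apart (p = 0.667 by exact two-sided permutation). The direction rested on IgG replicate 1: without it the difference was -0.210 points, and without IgG replicate 2 it was 0.391 points. Without MYT1L replicate 4 it was 0.0410 points.

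**Figure D4:**
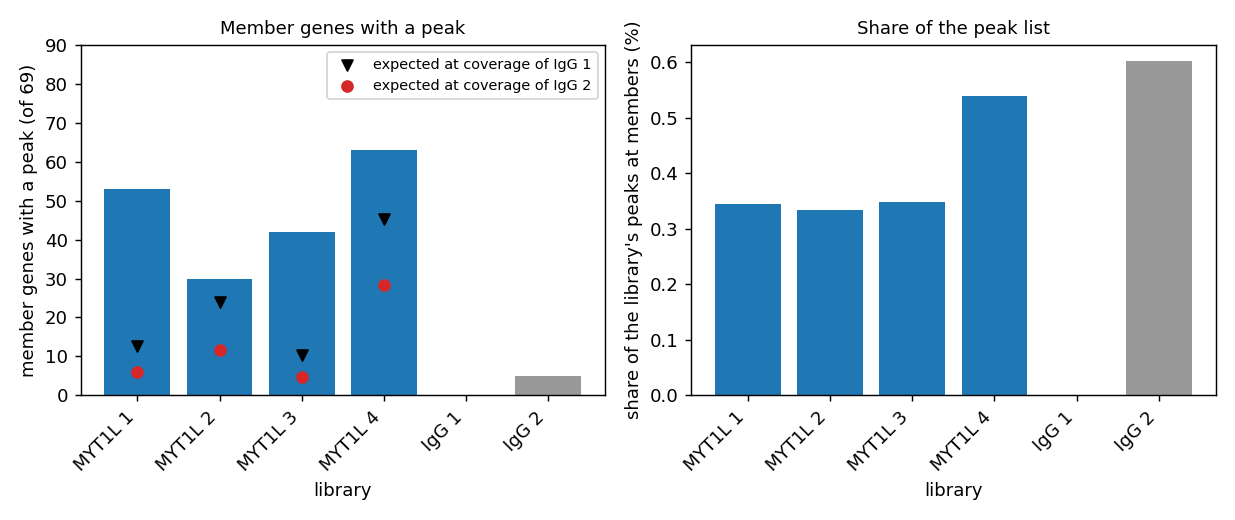
Guidance genes with a peak in each library (left, bars, of 69 genes) with the numbers expected at the coverage of each IgG library (symbols), and the share of each peak list that lies at guidance genes (right, percent). The bars run from 30 to 63 genes in MYT1L libraries, and the right panel shows MYT1L replicate 4 (0.538%) above the other 3 (0.333% to 0.348%).

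**Figure D5:**
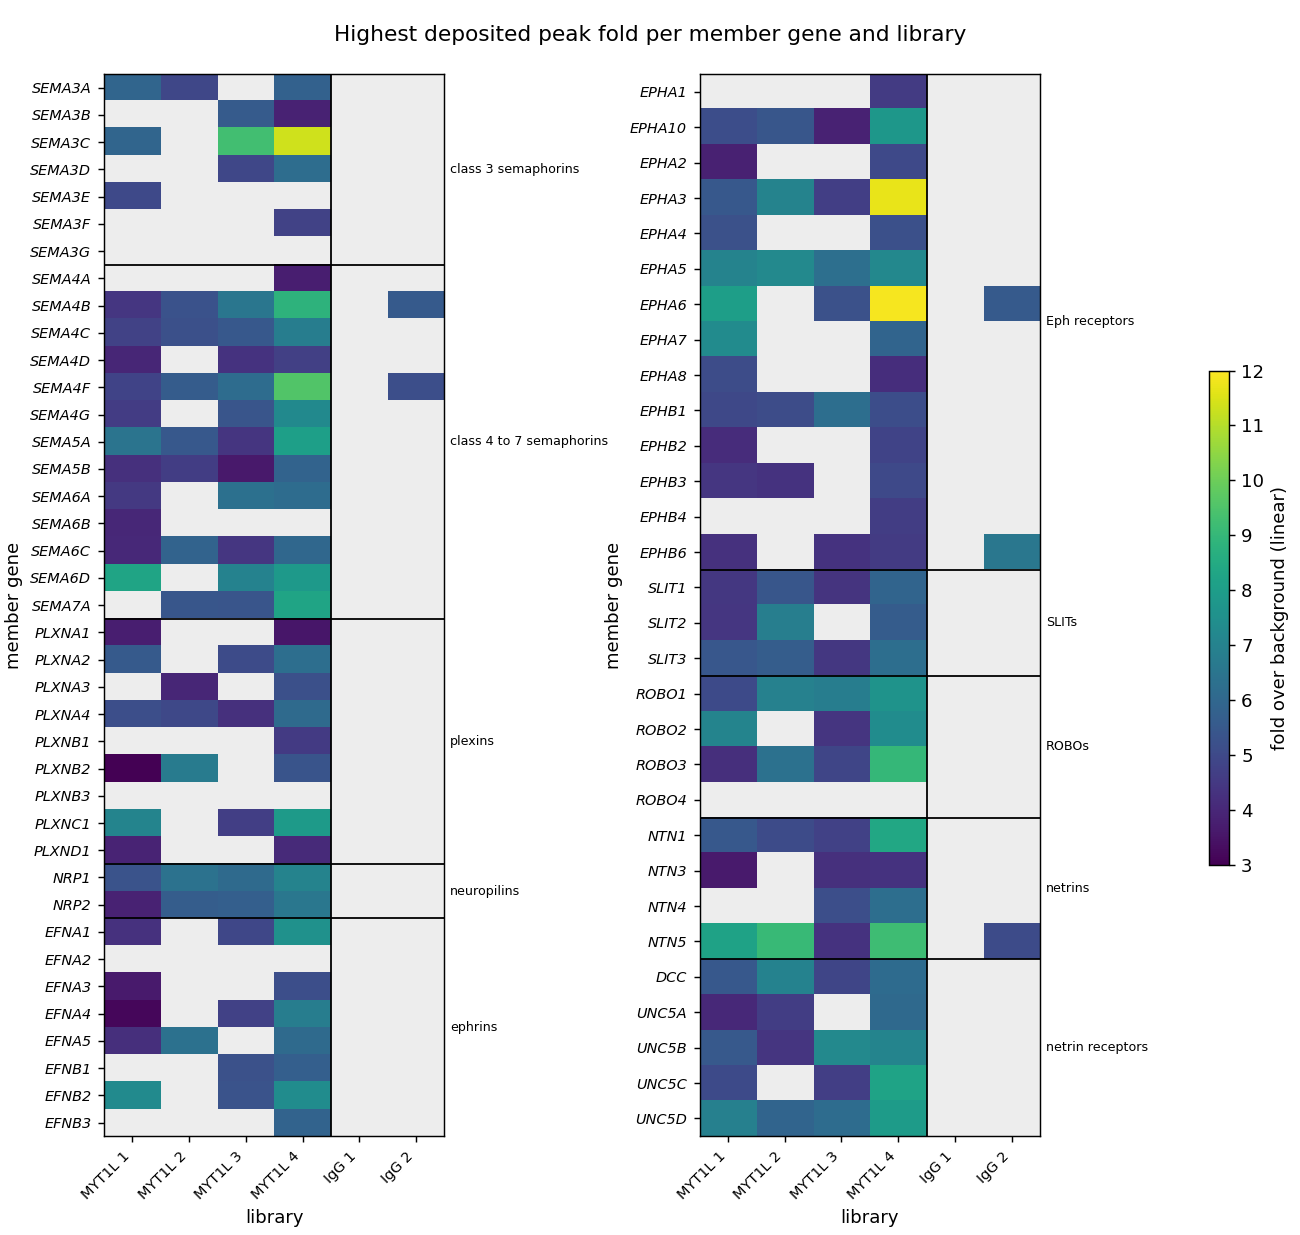
Highest deposited fold of a peak (colour, linear) at each of the 69 guidance genes (rows, by family) in each library (columns); grey marks no peak. The 4 genes without a MYT1L peak are EFNA2, PLXNB3, ROBO4 and SEMA3G, and the IgG columns hold peaks at 5 genes, all in IgG replicate 2.

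Other genes of the pathway were counted the same way. Of 43 genes for intracellular effectors of guidance receptors, such as the collapsin response mediators, 31 had a reproducible region (72.1%, against 48.0% of all protein-coding genes), and 26 of them within 1 kb of a start (60.5% against 40.0%). Their median length was 154 kb, and all genes weighted to the lengths of the list gave 61.4%. Of 22 further guidance cues and adhesion receptors, 10 had one (45.5%, against 59.3% at their lengths). Of 18 interneuron marker genes 4 had one, DLX2, MAF, NKX2-1 and SOX6 (22.2%, against 47.1% at their lengths), and of the 11 pluripotency markers that could be matched, DNMT3B, LIN28A and TERT had one (27.3%, against 40.3%). Within 1 kb of a start, 4 of the interneuron markers (22.2%) and 0 of the pluripotency markers had one, against 40.0% of all genes. Peaks do not measure expression, and these counts say nothing about which cells were present.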

How the data were processed

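CUT&RUN peak lists of 6 libraries, 4 MYT1L and 2 IgG, were used, grouped and numbered by the sample titles. Per the submitters' processing notes peaks were called with MACS2 on hg38; the aligner, the threshold and the control library are not given in the sources used here. Each deposited list holds, per peak, the authors' fold at the summit relative to local background, a ratio, and the authors' −log10 p and −log10 q, with a deposited score that was not used. The authors' lists hold 1 sample number each in their peak names, and pooling is not stated. The lists start at a −log10 q just above 2.

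Peaks on chromosomes 1 to 22, X and Y were assigned to the gene bodies of the RefSeq GRCh38.p14 table with 5 kb on either side, with positions counted from 1. Regions, windows and tests were computed in Python 3.11.15 with pandas 2.3.3 and scipy 1.17.1. A region's fold in a library is that of its strongest peak there. Total read numbers are unknown. Pileups were recovered as the whole number that gives both the deposited fold and −log10 p by the MACS formulas within 0.0002, which worked for at least 99.97% of peaks with a −log10 p up to 200; the lowest background of a list was taken as its coverage. To set libraries at 1 coverage, the chance that a binomially reduced pileup still passes the control's lowest −log10 p was summed over genes. On 2864 simulated peaks 100% of pileups were recovered. A p below 0.05 was the threshold.

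The members and lists were chosen with earlier results of these data known. Genes given with values in every library are those with an IgG-free region shared by all 4 MYT1L libraries, plus DCC, ROBO1, ROBO2, SLIT1, SLIT2, NRP1, NRP2, SEMA3A, PLXNA1, EPHA4, EFNB3 and UNC5C. Others were named for their family's account after their values were seen. Length classes, the CpG measure and the shown sequences were also chosen then. No genome sequence was used, so sequences under peaks away from starts are not shown. Alternatives covered the q threshold, equal peak numbers, the window, the number of libraries, the IgG filter and leaving out each library.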

Additional observations from a re-analysis of the deposited data

Results flagged for a closer look

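The share of the peak list that lies at guidance genes was 0.538% in MYT1L replicate 4, against 0.333% to 0.348% in the other 3 MYT1L libraries, a gap large enough to set that library apart from its group by Dixon's criterion at 4 samples. It was the 1 value set apart among 13 groups of 4 values checked, and chance sets apart about 1 group in 20. Replicate 4 also had the most peaks (30086), a median fold over all peaks of 5.55, within the 4.92 to 5.56 of the other 3, and the second lowest background coverage among MYT1L libraries (0.895 fragments over a position). Their part in the higher share was not tested.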

How the results depend on the processing

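The 2 alternatives that thin libraries to IgG coverage were chosen after seeing the data. The excess of MYT1L over IgG libraries in guidance genes with a peak, 44.5 genes, kept its direction in 12 of 13 alternatives, ranged from 39.2 to 50.2 when each library was left out, fell to 23.02 and 7.72 genes after thinning to IgG replicates 1 and 2, and turned to -1.75 with equal numbers of top peaks. The share difference, 0.0902 points, turned to -0.231 with equal numbers of top peaks and ranged from -0.210 to 0.391 when each library was left out. The permutation tests cannot pass 0.05, so they say nothing about stability. The fold difference, -0.400, stayed negative, from -0.625 to -0.358, in all 8 alternatives tried, but with a −log10 q of at least 5 it was negative in 3 of 4 libraries (0.104 in MYT1L replicate 2, permutation p = 0.250). When a −log10 q of 5 was required, the genes with a reproducible region were 15, the regions 15 and the genes with one at the start 11. With equal numbers of top peaks they were 17, 17 and 14, with at least 2 libraries 51, 76 and 45, and with all 4 libraries 10, 10 and 8. Leaving out each library gave 33 to 49 genes, 38 to 72 regions and 28 to 44 genes at the start, the highest without MYT1L replicate 2, where 2 of 3 libraries sufficed. Without MYT1L replicate 3 the regions were 60. By construction these settings change how many peaks or libraries enter. No share of all genes is given for leaving out a library or for genes with a region at the start in these settings. For those counts a change at guidance genes cannot be told from one over all genes. The numbers 1 and 2 shared by MYT1L and IgG samples are not said to mark a shared batch. With the replicate block the difference was 39.0 genes (exact sign-flip permutation p = 0.500) and 0.0378 points of share (p = 1.0, by the same permutation), with 2 pairs. Pileups of 7 to 51 fragments lie behind the reproducible regions, which limits the precision of each fold.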
